A study of Mus musculus with 12 samples.

Results

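The constitutive 26S proteasome subunits were taken as all genes of the count table whose symbol is Psma, Psmb, Psmc or Psmd followed by a number, leaving out the immunoproteasome genes Psmb8, Psmb9 and Psmb10. The rule found 36 genes of 22298, and no measured value entered it. They were 7 alpha ring, 7 beta ring, 6 ATPase, 3 non-ATPase base and 8 lid genes. The rest were 3 chaperones of 19S assembly (Psmd5, Psmd9 and Psmd10) and 2 tissue forms, the testis subunit gene Psma8 and the thymus subunit gene Psmb11. RNA came from 4T1 cells, a mouse mammary carcinoma line. Populations with the guide Cop1 sgRNA1, with the guide Cop1 sgRNA2 and with a Rosa26 guide as control each received IFNγ at 20 ng/ml or vehicle for 24 hours, and each of the 6 groups held 2 libraries. All groups thus carried a guide RNA, and the sources used here do not say whether the populations were pools or single clones, where the guides cut, or what the vehicle was. Cop1 encodes an E3 ubiquitin ligase, an enzyme that marks proteins with ubiquitin, and the design asks how its loss alters transcription at rest and under IFNγ.

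The 26S proteasome degrades proteins that carry ubiquitin chains. Its 20S core is a barrel in which outer rings of alpha subunits gate the entrance and inner rings of beta subunits enclose the active sites, and its 19S cap recognises, deubiquitinates, unfolds and feeds the substrate into the barrel. In cells exposed to IFNγ, the catalytic beta subunits Psmb6 (beta1), Psmb7 (beta2) and Psmb5 (beta5) can be replaced during assembly by Psmb9, Psmb10 and Psmb8, which gives the immunoproteasome, known for its part in making peptides for MHC class I presentation. When proteasome activity is limiting, the transcription factor NRF1, encoded by Nfe2l1, is known to raise transcription of the subunit genes together.

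A library held between 19378070 and 32609717 counts, of which the 36 genes made up 0.670 to 0.792%. Cop1, the targeted gene, had 60.7 and 60.2 CPM (counts scaled by the library total with its TMM factor) in sgRNA1 cells and 32.3 and 33.6 CPM in sgRNA2 cells, against 80.4 and 83.3 CPM in Rosa26 cells, all with IFNγ. In vehicle it had 59.1 and 63.1 CPM in sgRNA1 cells and 34.5 and 34.7 CPM in sgRNA2 cells, against 89.7 and 98.2 CPM in Rosa26 cells. Every Cop1-guide library was thus below every Rosa26 library of its treatment, and transcript remained with both guides. The 4 epithelial markers listed for the line were present in every library, with Krt8 at 16578 to 42414 counts and Epcam at 4663 to 10623, but moved with the groups compared. In Cop1-guide cells Krt8 (log2 change 0.24 in vehicle and 0.29 with IFNγ), Krt18 (0.25 and 0.45) and Epcam (0.30 and 0.39) were higher and Cdh1 (-0.48 and -0.29) was lower than in Rosa26 cells. IFNγ lowered Krt8 (-0.53 in Cop1-guide and -0.58 in Rosa26 cells), Krt18 (-0.18 and -0.38) and Epcam (-0.30 and -0.39), and Cdh1 was higher with IFNγ in Cop1-guide cells (0.14) and not called in Rosa26 cells (-0.04). By contrast, the leukocyte marker Ptprc had 0 to 6 counts and the endothelial marker Pecam1 0 to 7. The fibroblast marker Pdgfra had 304 to 646 counts and was lower in Cop1-guide than in Rosa26 cells in vehicle (log2 change -0.26 ± 0.081). It was also lower with IFNγ than in vehicle in Cop1-guide cells (-0.27 ± 0.07) and in Rosa26 cells (-0.48 ± 0.096), and the part of these markers in the results was not tested. Nothing in the labels tells whether the 2 libraries of a group came from separate cultures. The p-values therefore reflect the spread among these libraries alone, and that spread may be technical. Counts of a bulk culture cannot tell fewer cells of a kind from less RNA per cell.

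Of the 36 genes, 34 passed the low-count filter that left 11904 genes for testing. Psmb11 had 0 counts in all 12 libraries and Psma8 had 1 count, in Rosa26 vehicle replicate 2, where a floor of 3 counts corresponds to 0.092 to 0.158 CPM over the libraries, so neither tissue form was detectable above that floor at this depth. Levels of different genes were compared per kilobase of the principal GENCODE transcript and averaged over the 6 groups, a scale that depends on the transcript chosen. On it, the alpha ring gene Psma7 (343 CPM per kb) and the beta ring gene Psmb4 (305 CPM per kb) stood at the top. Psmb5 was the lowest gene of the core at 44.6 CPM per kb, against 99.6 for Psmb7 and 204 for Psmb6. However, Psmb5 shares 109 exon bases with the microRNA gene Mir686 on the same strand. How reads in such an overlap were counted is not given in the sources used here. The 3 assembly chaperones lay below every structural subunit, with 24.3 CPM per kb for Psmd5, 20.5 for Psmd9 and 14.5 for Psmd10.

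Promoters of 29 of the 36 genes were found in a RefSeq table of GRCm38.p6 that runs from 250 bases before to 50 after each gene's start. Those not found were Psma8, Psmb1, Psmb2, Psmb7, Psmc3, Psmd3 and Psmd7. The letters TGACNNNGC, found in elements bound by NRF1 and its relatives, were searched on both strands and occurred in 5 of the 29 (17.2%), against 12.5% of 27025 promoters. They occurred in Psmb5 and Psmb6, the replaced catalytic genes whose promoters were found. These promoters are shown because their catalytic subunits are the ones exchanged under IFNγ, and that of Psmd8, a lid gene, because it had the largest change of the set with IFNγ in Rosa26 cells and the only called difference between the IFNγ responses. Capitals mark TGACNNNGC, which starts at position -47 in Psmb5 and -9 in Psmb6, counted from the RefSeq start. The windows are chr14:54617996-54618245 on the minus strand for Psmb5, chr11:70525107-70525356 on the plus strand for Psmb6 and chr7:29180674-29180923 on the minus strand for Psmd8.
Psmb5: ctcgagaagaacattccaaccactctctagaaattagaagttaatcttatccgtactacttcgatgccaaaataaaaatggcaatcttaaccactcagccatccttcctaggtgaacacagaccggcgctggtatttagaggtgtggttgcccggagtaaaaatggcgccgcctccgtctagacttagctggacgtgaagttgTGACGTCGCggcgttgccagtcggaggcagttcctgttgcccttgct
Psmb6: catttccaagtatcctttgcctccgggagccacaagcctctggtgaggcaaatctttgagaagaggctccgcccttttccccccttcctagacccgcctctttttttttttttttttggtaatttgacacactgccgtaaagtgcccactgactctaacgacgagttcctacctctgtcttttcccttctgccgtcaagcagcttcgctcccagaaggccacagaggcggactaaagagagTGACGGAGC
Psmd8: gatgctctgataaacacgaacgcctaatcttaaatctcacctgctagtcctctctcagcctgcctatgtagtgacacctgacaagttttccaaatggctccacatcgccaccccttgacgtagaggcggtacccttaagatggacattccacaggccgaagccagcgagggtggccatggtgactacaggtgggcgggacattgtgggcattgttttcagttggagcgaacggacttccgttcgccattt
Psmd8 held none of the motifs searched in its window. The ETS core CCGGAAG occurred in 9 of the 29 promoters (31%, against 9.12% of all promoters), which were those of Psmc1, Psmc2, Psmc6, Psmd2, Psmd4, Psmd6, Psmd11, Psmd12 and Psmd13. CCAAT occurred in 12 (41.4%, against 37.9%), TTCNNNGAA, the form bound by STAT factors, in Psmd2 alone (3.45%, against 8.47%), and the IRF form, 2 copies of GAAA with 2 bases between them, in Psmb3, Psmd4 and Psmd9 (10.3%, against 3.49%). All were searched on both strands, and a match is a description of the letters and not of binding. The 9 genes with CCGGAAG had a median log2 change of 0.14 with loss of Cop1 in vehicle, and the 19 tested genes whose promoter lacked it had 0.19. With IFNγ these medians were 0.15 and 0.19. For IFNγ against vehicle they were 0.05 and 0.12 in Cop1-guide cells and 0.07 and 0.12 in Rosa26 cells. The 9 are all genes of the 19S cap, and every alpha ring gene is among the 19. A difference by motif thus cannot be told apart from one by particle, and it was not tested.

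Summed over the 36 genes, proteasome transcripts were highest in Cop1-guide cells with IFNγ and lowest in Rosa26 cells in vehicle. The sum was 8045 ± 80.8 CPM in sgRNA1 cells and 7853 ± 79.1 CPM in sgRNA2 cells, against 7204.5 ± 104 CPM in Rosa26 cells, all with IFNγ (SD, n = 2 in each group). In vehicle it was 7324 ± 36.8 CPM in sgRNA1 cells and 7261 ± 37.9 CPM in sgRNA2 cells, against 6619 ± 80.8 CPM in Rosa26 cells. Relative to Rosa26 cells in vehicle, sgRNA1 and sgRNA2 cells with IFNγ thus held 122 and 119%, Rosa26 cells with IFNγ 109%, and sgRNA1 and sgRNA2 cells in vehicle 111 and 110%. The alpha ring had the widest span of the particles, with 1912 ± 22.3 CPM in sgRNA1 cells with IFNγ against 1411 ± 20.1 CPM in Rosa26 cells in vehicle. The chaperone genes did not follow this order, with 187 ± 1.92 CPM in sgRNA1 cells and 181 ± 0.923 CPM in sgRNA2 cells, against 190 ± 0.330 CPM in Rosa26 cells, all with IFNγ.

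**Figure D1:**
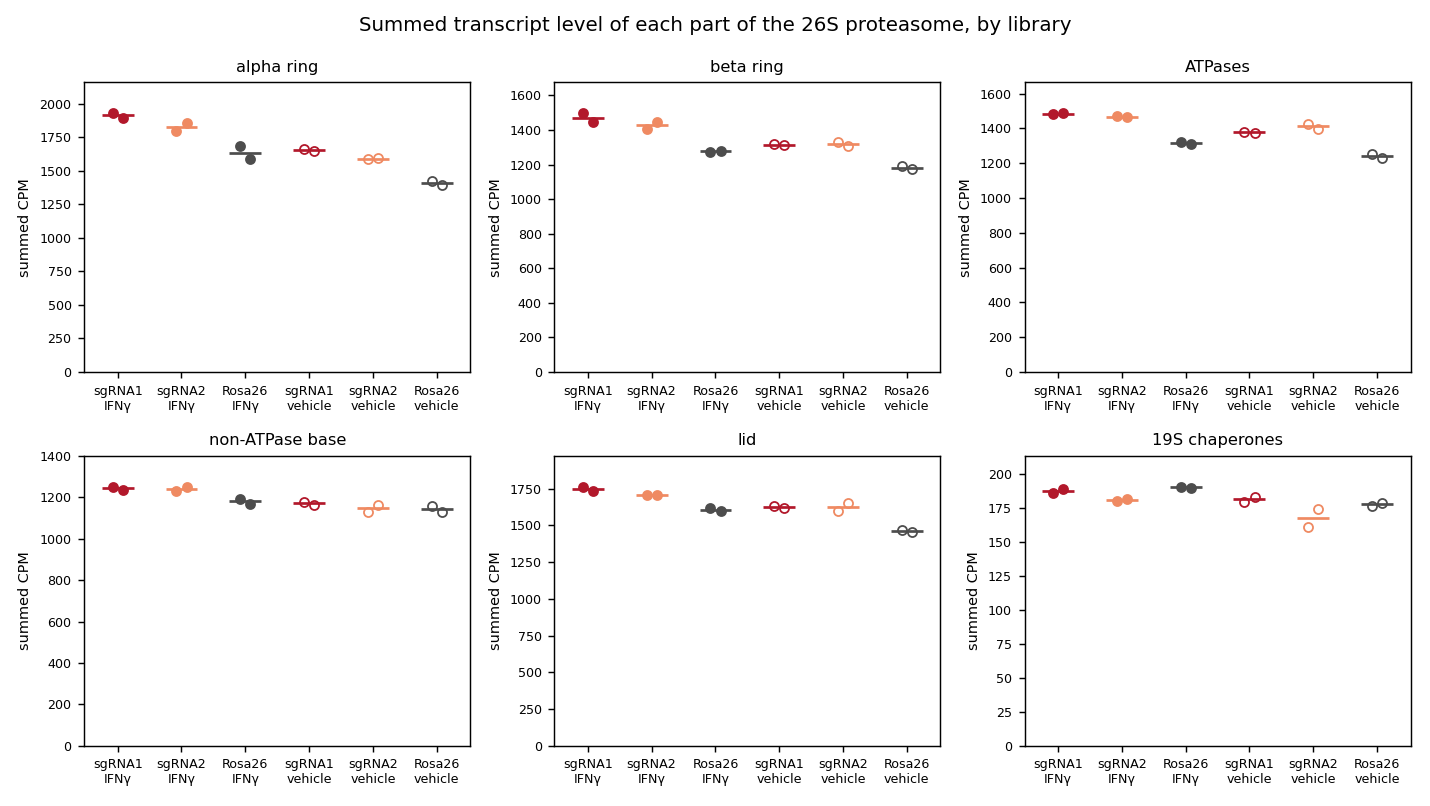
Summed CPM of the genes of each particle (vertical axis, from 0) in each of the 12 libraries, by guide and treatment; filled points are IFNγ libraries, open points vehicle libraries, and bars are the mean of 2 libraries. In the alpha ring, beta ring, ATPase and lid panels every Cop1-guide library lies above the Rosa26 libraries of the same treatment, whereas the chaperone panel shows no such order.

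In vehicle, Cop1-guide cells held slightly more transcript of most subunits of the core, the ATPase ring and the lid. Of the 34 genes tested, 26 rose and 3 fell in Cop1-guide cells (mean of the 2 guides) against Rosa26 cells, where a call needs a p under 0.05 in edgeR's quasi-likelihood test after Benjamini-Hochberg adjustment over the 11904 genes. Of all these genes, 35.8% were called, 16.6% as higher and 19.2% as lower. The median log2 change of the 34 was 0.16, a level 11.8% higher, with a range from -0.31 to 0.28 and standard errors from 0.024 to 0.08, and that of all genes was -0.01. All 4 Cop1-guide libraries were above both Rosa26 libraries in 26 of the 34 genes (76.5%, against 21.5% of all genes tested) and below both in 3 (8.82%, against 24.5%). When the libraries of each population were summed, so that the spread came from the guides alone, only 5 genes were called higher and 0 lower, and 902 of all genes were called instead of 4258. In that fit Cop1 itself was not called (-0.97, adjusted p = 0.413).

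All 7 alpha ring genes rose (median log2 change 0.21), as did 5 of 7 beta ring genes (0.13). Psma5, the alpha5 subunit (chromosome 3, 108256926 to 108279974, 9 exons in its principal transcript), had 232 and 225 CPM in sgRNA1 cells and 216 and 215 CPM in sgRNA2 cells, against 182 and 182 CPM in Rosa26 cells. The Cop1-guide libraries were all above the Rosa26 libraries, a log2 change of 0.28 ± 0.03 (all log2 changes are given with their standard error; adjusted p = 4.45e-10). An antisense gene, 1700010K24Rik, shares 60 exon bases with Psma5, and without a stated strand setting their reads cannot be told apart. Psmb2 (0.08 ± 0.037) and Psmb5 (0.13 ± 0.08) were the beta ring genes without a call.

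In the 19S cap, all 6 ATPase genes rose (median log2 change 0.16), which encode the motor that unfolds substrates. Psmc5 (chromosome 11, 106256154 to 106263120) had 206 and 208 CPM in sgRNA1 cells and 215 and 207 CPM in sgRNA2 cells, against 173 and 176 CPM in Rosa26 cells. The groups did not overlap, and the log2 change was 0.26 ± 0.03 (adjusted p = 4.11e-09). Of the 8 lid genes 7 rose (median 0.18), among them Psmd14, the deubiquitinase that removes ubiquitin chains from the substrate (0.23 ± 0.03). The largest lid change was that of the structural subunit gene Psmd13 (chromosome 7, 140881968 to 140898643), with 151 and 147 CPM in sgRNA1 cells and 137 and 148 CPM in sgRNA2 cells, against 118 and 123 CPM in Rosa26 cells. Again no Cop1-guide library reached down to the Rosa26 range (0.27 ± 0.037, adjusted p = 7.14e-08). However, 342 of its exon bases are shared with Sirt3 on the other strand.

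The 3 genes that fell in vehicle were Psmd10, Psmd2 and Psmd8. Psmd10 (chromosome X, 140948429 to 140956728), known as gankyrin, a chaperone of 19S base assembly that is not part of the finished particle, had 21.5 and 22.5 CPM in sgRNA1 cells and 16.9 and 15.2 CPM in sgRNA2 cells, against 23.3 and 23.3 CPM in Rosa26 cells. The sgRNA2 libraries were lowest and the sgRNA1 libraries close to the Rosa26 level, so the fall of -0.31 ± 0.079 (adjusted p = 0.00168) was uneven. It was -0.08 ± 0.089 with sgRNA1 alone (adjusted p = 0.505) and -0.54 ± 0.095 with sgRNA2 alone (adjusted p = 2.04e-05). Psmd2, a large scaffold subunit of the base (chromosome 16, 20651652 to 20663414), had 591 and 592 CPM in sgRNA1 cells and 560 and 576 CPM in sgRNA2 cells, against 626 and 607 CPM in Rosa26 cells, a change of -0.09 ± 0.024 (adjusted p = 0.00338). That call ended without Rosa26 vehicle replicate 1 (adjusted p = 0.133) and with sgRNA1 alone (0.102). The fall of Psmd8 in vehicle was as small (-0.08 ± 0.029, adjusted p = 0.0226). That call ended without either Rosa26 vehicle library (0.191 without replicate 1 and 0.0674 without replicate 2), without sgRNA1 vehicle replicate 1 (0.0592), with sgRNA2 alone (0.115) and by DESeq2 (0.0677). Psmd1, the other scaffold of the base, rose (0.19 ± 0.026), and the ubiquitin receptor gene Psmd4 was not called (0.05 ± 0.032). Psmd1 shares 301 exon bases with Gm21972 on the same strand and 252 with Htr2b on the other.

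With IFNγ, loss of Cop1 was again accompanied by higher subunit transcripts: 25 of the 34 genes rose and 2 fell. Of all genes tested, 40.6% were called (19.8% higher, 20.7% lower). The median log2 change of the 34 was 0.17, a level 12.4% higher, with a range from -0.43 to 0.28, against -0.00 over all genes. All 4 Cop1-guide libraries were above both Rosa26 libraries in 26 of the 34 genes (76.5%, against 23.9% of all genes tested) and below both in 2 (5.88%, against 24.7%). By particle, 6 of 7 alpha ring genes rose (median 0.21), as did 6 of 7 beta ring genes (0.15), 6 of 6 ATPase genes (0.17) and 6 of 8 lid genes (0.18). So did 1 of 3 non-ATPase base genes (0.03) and 0 of 3 chaperone genes (-0.02). Summing the libraries of each population left 10 genes higher and 1 lower.

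Psma5 had 277 and 287 CPM in sgRNA1 cells and 263 and 272 CPM in sgRNA2 cells, against 233 and 220 CPM in Rosa26 cells, and was higher in each Cop1-guide library than in either Rosa26 library (0.28 ± 0.03, adjusted p = 2.65e-10). Psma7, the alpha4 subunit (chromosome 2, 180036374 to 180042433), had 377 and 354 CPM in sgRNA1 cells and 345 and 353 CPM in sgRNA2 cells, against 309 and 287 CPM in Rosa26 cells. Its groups did not overlap either (0.26 ± 0.03, adjusted p = 1.96e-09), and in vehicle it changed by 0.21 ± 0.031. Psma6 was the alpha ring gene without a call, at 0.02 ± 0.03 with IFNγ (adjusted p = 0.58) against 0.16 ± 0.031 in vehicle, and the difference between these was -0.13 ± 0.043 with an adjusted p of 0.0598.

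The genes that fell with IFNγ were Psmd8 and Psmd10. Psmd8, a lid subunit gene (chromosome 7, 29174188 to 29180701), had 199 and 203 CPM in sgRNA1 cells and 199.8 and 199 CPM in sgRNA2 cells, against 245 and 238 CPM in Rosa26 cells. The Cop1-guide libraries agreed closely and all lay below the Rosa26 libraries (-0.27 ± 0.029, adjusted p = 2.43e-10). Psmd10 had 20.1 and 18.7 CPM in sgRNA1 cells and 18.99 and 17.2 CPM in sgRNA2 cells, against 26.02 and 24.6 CPM in Rosa26 cells. Here both guides were below Rosa26 (-0.43 ± 0.078, adjusted p = 1.68e-05).

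**Figure D2:**
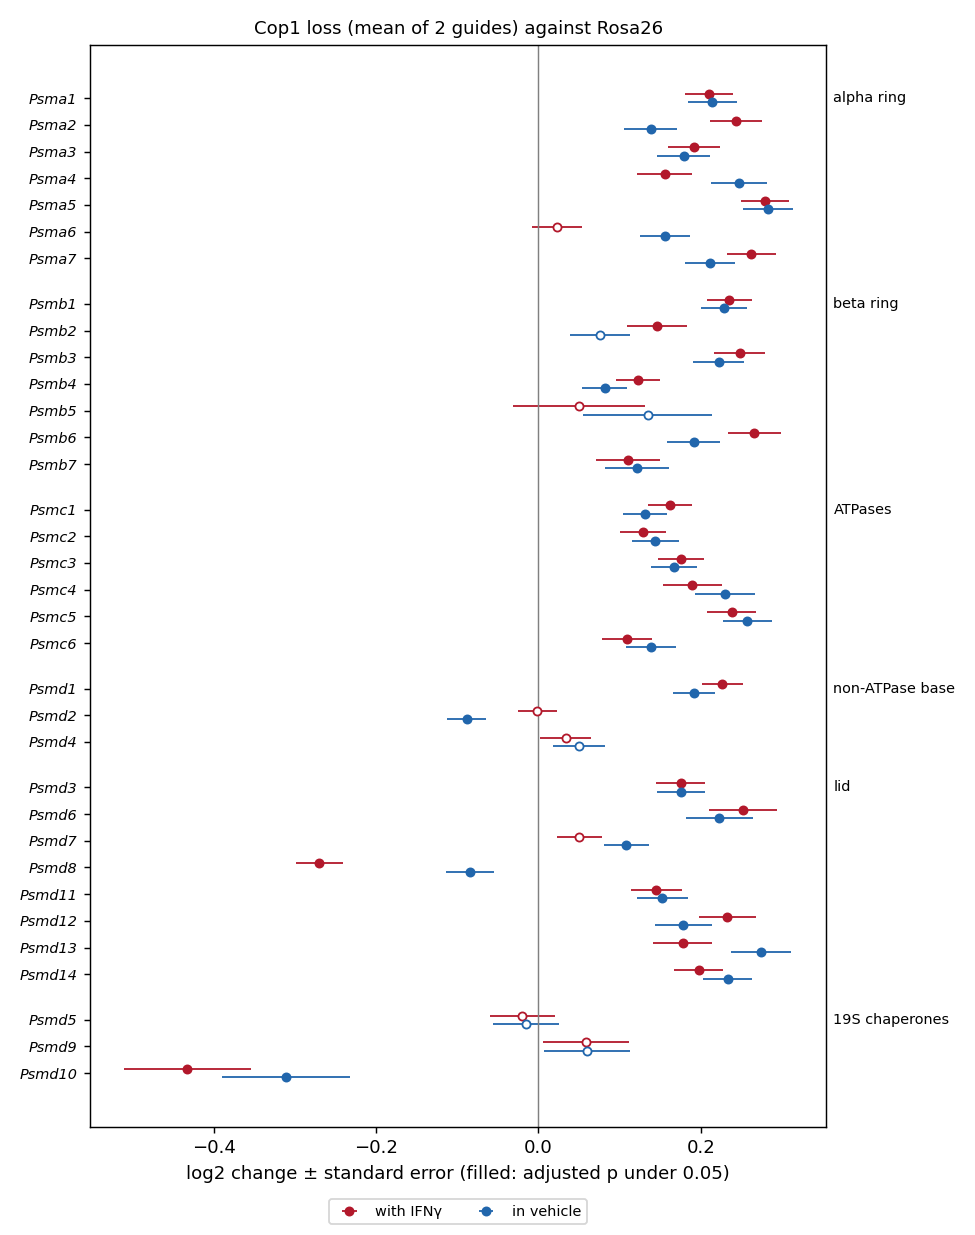
Log2 change of each of the 34 tested genes with loss of Cop1 (mean of 2 guides) against Rosa26 (horizontal axis), ordered by particle, with IFNγ in red above vehicle in blue; bars are standard errors and filled points have an adjusted p under 0.05. Most points of the core, ATPases and lid lie right of 0, with Psmd8 and Psmd10 on the left in both treatments and Psmd2 on the left in vehicle.

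Each guide population was set against the same Rosa26 libraries, so the lists are not independent. In vehicle, 25 of the 34 genes were called higher and 1 lower with sgRNA1, and 24 higher and 2 lower with sgRNA2. Of all genes, 33.4% were called with sgRNA1 (15.8% higher, 17.5% lower) and 29.2% with sgRNA2 (13.5% higher, 15.7% lower). With IFNγ, 24 were called higher and 2 lower with sgRNA1, and 25 higher and 2 lower with sgRNA2. Of all genes, 38.2% were called with sgRNA1 (18.9% higher, 19.3% lower) and 32.9% with sgRNA2 (16.6% higher, 16.2% lower). Set directly against each other, the guide populations differed in 2 of the 34 genes in vehicle and in 1 with IFNγ, all lower in sgRNA2 cells. Of all genes, 5.99% were called in vehicle (2.58% higher, 3.41% lower) and 9.41% with IFNγ (5.07% higher, 4.33% lower). The subunit genes were Psmd10 in vehicle (-0.45 ± 0.094, adjusted p = 0.00128) and the alpha2 gene Psma2 in both treatments. Psma2 (chromosome 13, 14613240 to 14674236) had 164 and 171 CPM in sgRNA2 cells against 184 and 181 CPM in sgRNA1 cells in vehicle (-0.12 ± 0.037, adjusted p = 0.0387), and 183 and 199 CPM in sgRNA2 cells against 212 and 212 CPM in sgRNA1 cells with IFNγ (-0.15 ± 0.037, adjusted p = 0.00532). The vehicle call for Psma2 ended without sgRNA2 replicate 1 (adjusted p = 0.295), sgRNA1 replicate 1 (0.249) or sgRNA1 replicate 2 (0.0997), and by DESeq2 (0.105). The IFNγ call ended without sgRNA2 replicate 1 (0.293) or sgRNA1 replicate 1 (0.0512).

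**Figure D3:**
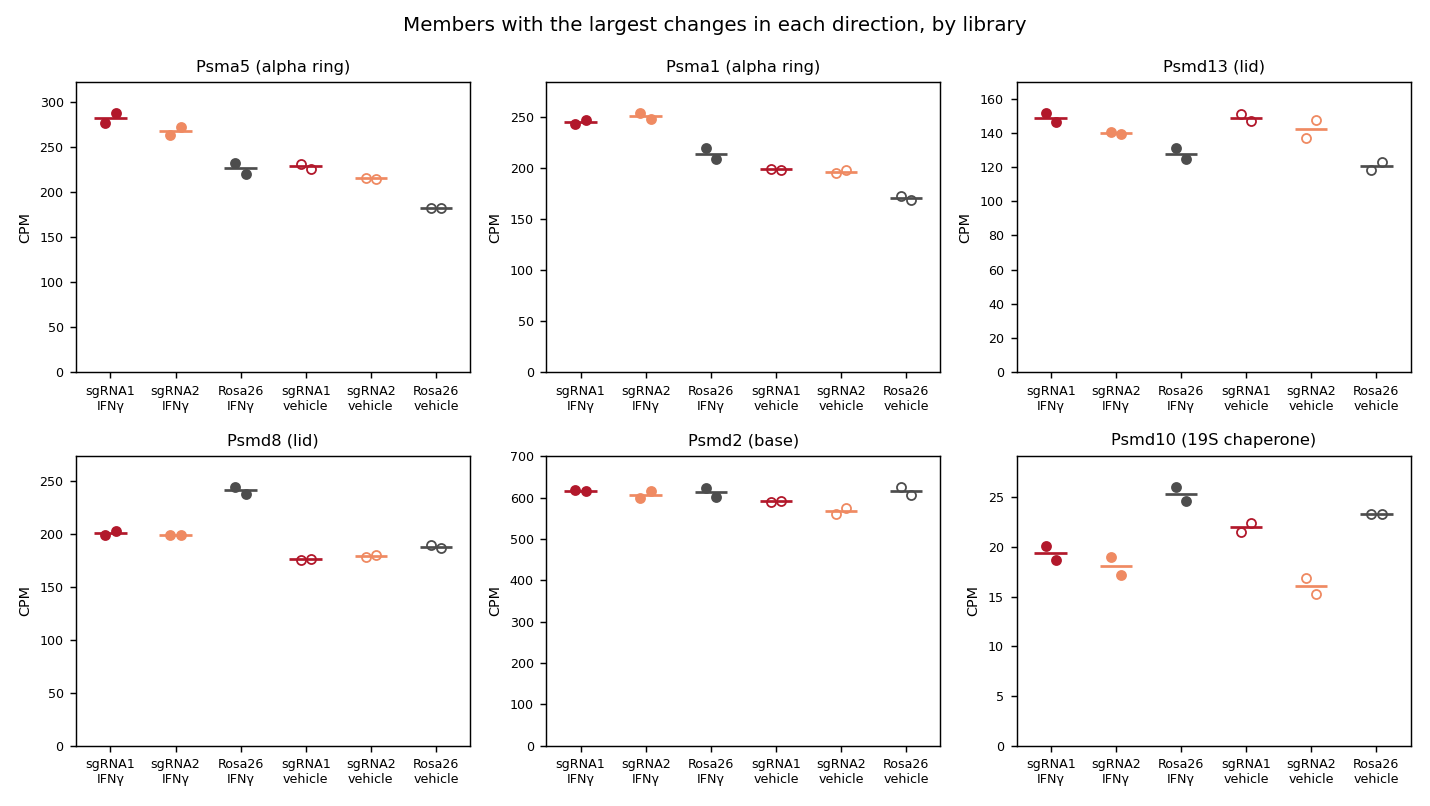
CPM (vertical axis, from 0) of Psma5, Psma1, Psmd13, Psmd8, Psmd2 and Psmd10 in each of the 12 libraries by guide and treatment; filled points are IFNγ libraries, open points vehicle libraries, and bars are means of 2 libraries. Psma5 and Psma1 are highest in Cop1-guide cells with IFNγ, whereas Psmd8 is highest in Rosa26 cells with IFNγ, at 245 and 238 CPM.

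IFNγ against vehicle in Rosa26 cells, the cytokine response without a Cop1 guide, raised 19 of the 34 genes and lowered 0, where 32.8% of all genes were called (16.6% higher, 16.2% lower). At an unadjusted p under 0.05 edgeR's test also gave 0 lower genes, as did DESeq2 and limma at an adjusted p under 0.05. The median log2 change was 0.12, a level 8.56% higher, with a range from -0.08 to 0.36, against -0.01 over all genes. All 7 alpha ring genes rose (median 0.18), as did 2 of 7 beta ring genes (0.07), 3 of 6 ATPase genes (0.10), 2 of 3 non-ATPase base genes (0.08), 4 of 8 lid genes (0.11) and 1 of 3 chaperone genes (0.12). Of the 19 calls, 10 held on leaving out each of the 4 libraries in turn, and 11 genes were called without Rosa26 vehicle replicate 2. DESeq2 kept 15 of the 19, limma 18 and upper quartile scaling 14. Under upper quartile scaling the median was 0.08, against -0.04 over all genes. Cop1 itself fell in this comparison (-0.20 ± 0.054, adjusted p = 0.00361), but was not called when vehicle replicate 2 (-0.13, adjusted p = 0.144) or IFNγ replicate 1 (-0.17, adjusted p = 0.0602) was left out.

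Psmd8 had the largest change, with 245 and 238 CPM with IFNγ against 189.9 and 187 CPM in vehicle in Rosa26 cells (0.36 ± 0.033, adjusted p = 6.75e-12). Psma1, the alpha6 subunit (chromosome 7, 114264606 to 114276118, 10 exons), had 219 and 209 CPM with IFNγ against 172 and 168 CPM in vehicle (0.33 ± 0.035, adjusted p = 1.48e-10). Psma5 had 233 and 220 CPM with IFNγ against 182 and 182 CPM in vehicle (0.31 ± 0.035, adjusted p = 7.91e-10). In each of these the IFNγ libraries were above the vehicle libraries, and levels were 28.2% (Psmd8), 25.8% (Psma1) and 24.2% (Psma5) higher.

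In Cop1-guide cells IFNγ raised 22 of the 34 genes and lowered 0, where 34.2% of all genes were called (18.1% higher, 16.1% lower). Of the 22 calls, 19 held with sgRNA1 alone, 16 with sgRNA2 alone and 7 with the libraries of each population summed. Of the 34 genes 1, Psmb5, was lower at an unadjusted p under 0.05, and DESeq2 and limma called 0 lower. Upper quartile scaling kept 17 of the 22 higher calls and DESeq2 21. The median log2 change was 0.11, a level 8.02% higher, with a range from -0.16 to 0.33. Under upper quartile scaling it was 0.06, against -0.05 over all genes. The count was 6 of 7 in the alpha ring (median 0.20), 4 of 7 in the beta ring (0.08), 4 of 6 among the ATPases (0.08), 3 of 3 in the non-ATPase base (0.11), 4 of 8 in the lid (0.08) and 1 of 3 among the chaperones (0.03). Psma1 had 242 and 247 CPM in sgRNA1 cells and 253 and 247 CPM in sgRNA2 cells with IFNγ, against 199 and 198 CPM in sgRNA1 cells and 195 and 197 CPM in sgRNA2 cells in vehicle, with no overlap between treatments (0.33 ± 0.024, adjusted p = 3.34e-15). Psma5 rose by 0.31 ± 0.024 (adjusted p = 2.31e-14). Psmb4, the beta7 subunit, which has no active site (chromosome 3, 94884093 to 94886961), had 413 and 413 CPM in sgRNA1 cells and 389 and 408 CPM in sgRNA2 cells with IFNγ, against 338 and 337 CPM in sgRNA1 cells and 321 and 339 CPM in sgRNA2 cells in vehicle. It was higher with IFNγ in both guide populations (0.28 ± 0.022, adjusted p = 4.16e-14), and in Rosa26 cells it had 373 and 372 CPM with IFNγ against 322 and 308 CPM in vehicle (0.24 ± 0.032, adjusted p = 4.99e-08).

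**Figure D4:**
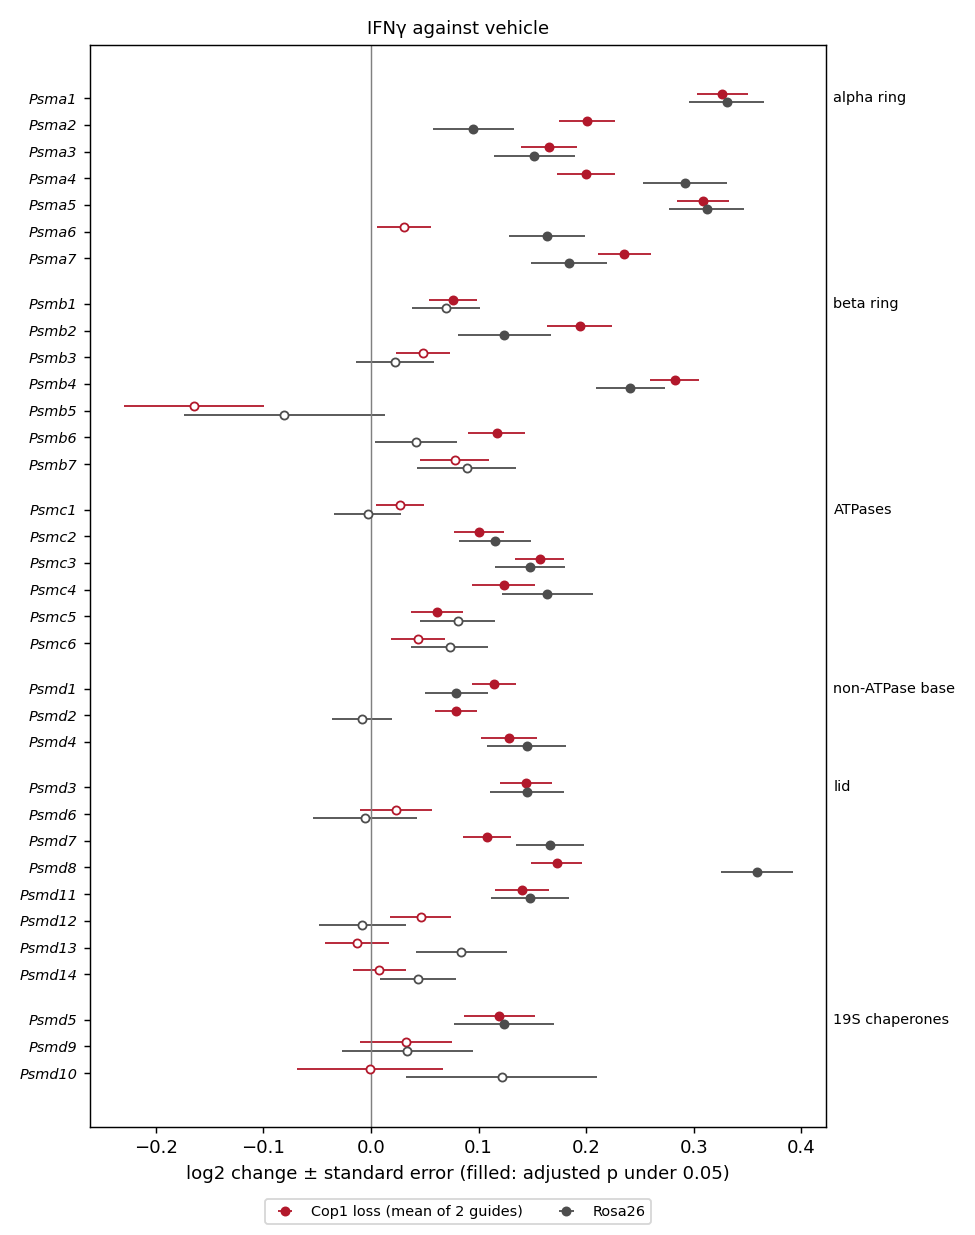
Log2 change of each of the 34 tested genes with IFNγ against vehicle (horizontal axis), ordered by particle, in Cop1-guide cells (mean of 2 guides, red) above Rosa26 cells (grey); bars are standard errors and filled points have an adjusted p under 0.05. All alpha ring points lie right of 0, Psmb5 is left of 0 in both without a call, and the Psmd8 points lie apart from each other.

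The test of the difference between these responses, the interaction, called 1 of the 34 genes, Psmd8, where 5.74% of all genes were called (3.38% with a positive and 2.36% with a negative value). Psmd8 in Cop1-guide cells had 199, 203, 199.8 and 199 CPM with IFNγ against 176, 177, 178 and 180.2 CPM in vehicle, a change of 0.17 ± 0.024. The change in Rosa26 cells of 0.36 was larger, a difference of -0.19 ± 0.041 (adjusted p = 0.00287). The call held on leaving out each of the 12 libraries in turn, and ended with the libraries of each population summed, where 0 of all genes were called. The interaction values of the 34 genes ranged from -0.19 to 0.11 with standard errors of 0.034 to 0.114, and a missing call does not show that the responses of the other genes were equal. No gene was called with a positive value, where 2 (Psma2 and Psmd2) had one at an unadjusted p under 0.05 and DESeq2 and limma called 0. Besides Psmd8, Psma6 had a negative value at an unadjusted p under 0.05 by edgeR's test. Psma6 was called with upper quartile scaling, library totals and no filter, and without some single libraries.

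Of the catalytic subunits that the immunoproteasome replaces, Psmb6 and Psmb7 rose with loss of Cop1 in both treatments and Psmb5 was not called, and IFNγ raised Psmb6 in Cop1-guide cells with no other call. Psmb6 (beta1, caspase-like activity; chromosome 11, 70525367 to 70527858) had 183 and 179 CPM in sgRNA1 cells and 170.1 and 179 CPM in sgRNA2 cells, against 147 and 149 CPM in Rosa26 cells, all with IFNγ. In vehicle it had 161 and 164 CPM in sgRNA1 cells and 168 and 163 CPM in sgRNA2 cells, against 143 and 144 CPM in Rosa26 cells. Cop1-guide libraries were above Rosa26 libraries in both treatments, with log2 changes of 0.27 ± 0.033 with IFNγ (adjusted p = 9.29e-09) and 0.19 ± 0.033 in vehicle (adjusted p = 8.58e-06). IFNγ against vehicle gave 0.12 ± 0.026 in Cop1-guide cells (adjusted p = 0.000415) and 0.04 ± 0.038 in Rosa26 cells (adjusted p = 0.43), and the difference between these was not called (0.07 ± 0.046, adjusted p = 0.419). The IFNγ call in Cop1-guide cells ended with sgRNA2 alone (0.08, adjusted p = 0.142) and with summed populations (adjusted p = 0.184), and the Cop1 call in vehicle with summed populations (0.0991).

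Psmb7 (beta2, trypsin-like activity; chromosome 2, 38588036 to 38644087) had 122 and 119.5 CPM in sgRNA1 cells and 122 and 123 CPM in sgRNA2 cells, against 113 and 112 CPM in Rosa26 cells, all with IFNγ. In vehicle it had 115 and 111 CPM in sgRNA1 cells and 124 and 111 CPM in sgRNA2 cells, against 106 and 106 CPM in Rosa26 cells. The Cop1-guide libraries were above the Rosa26 libraries by little, 0.11 ± 0.039 with IFNγ (adjusted p = 0.0227) and 0.12 ± 0.04 in vehicle (adjusted p = 0.0141). The IFNγ call ended without sgRNA1 replicate 1 (0.0619), sgRNA2 replicate 2 (0.0679) or either Rosa26 library (0.0948 without replicate 1 and 0.123 without replicate 2). It also ended by DESeq2 (0.0607), with library totals (0.168), with sgRNA1 alone (0.0764) and with summed populations (0.291). The vehicle call ended without either Rosa26 vehicle library (adjusted p = 0.0973 without replicate 1 and 0.0731 without replicate 2) and without sgRNA2 vehicle replicate 1 (0.106), with library totals (0.0545), with sgRNA1 alone (0.0999) and with summed populations (0.274). Of its exon bases, 405 are shared with Nek6 on the other strand. IFNγ against vehicle was not called in Cop1-guide cells (0.08 ± 0.032, adjusted p = 0.056) or in Rosa26 cells (0.09 ± 0.046, adjusted p = 0.138). Without sgRNA2 vehicle replicate 1 it was called in Cop1-guide cells (0.12, adjusted p = 0.0043).

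Psmb5 (beta5, chymotrypsin-like activity; chromosome 14, 54614119 to 54618022) had 38.4 and 39.5 CPM in sgRNA1 cells and 37.8 and 38.4 CPM in sgRNA2 cells, against 33.9 and 40.5 CPM in Rosa26 cells, all with IFNγ. In vehicle it had 39.0 and 43.6 CPM in sgRNA1 cells and 50.9 and 40.0 CPM in sgRNA2 cells, against 38.5 and 40.2 CPM in Rosa26 cells. Groups overlapped in both treatments and sgRNA2 vehicle replicate 1 stood highest. No comparison called Psmb5. Loss of Cop1 gave 0.05 ± 0.082 with IFNγ (adjusted p = 0.665) and 0.13 ± 0.08 in vehicle (adjusted p = 0.203). The vehicle value ranged from 0.05 to 0.22 over the alternatives, and without sgRNA2 vehicle replicate 2 it was called (0.22, adjusted p = 0.0091). IFNγ against vehicle gave -0.16 ± 0.065 in Cop1-guide cells (adjusted p = 0.0554) and -0.08 ± 0.093 in Rosa26 cells (adjusted p = 0.559). The value in Cop1-guide cells was called without sgRNA2 vehicle replicate 2 (-0.25, adjusted p = 0.000465) or sgRNA1 vehicle replicate 1 (-0.21, adjusted p = 0.0267), and in 4 other alternatives (adjusted p from 0.00505 to 0.0361). GENCODE annotates processed pseudogenes of Psmb5 and Psmb6 and a transcribed one of Psmb7, none of which is a gene of the count table. How reads shared with such copies were counted is not given in the sources used here.

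The immunoproteasome genes, in contrast, were all 3 called as higher with IFNγ, in Cop1-guide and in Rosa26 cells. In Rosa26 cells Psmb9 had 190.02 and 179.6 CPM with IFNγ against 4.99 and 4.98 CPM in vehicle (37-fold, adjusted p = 8.93e-42). Psmb10 had 349 and 335 CPM with IFNγ against 38.9 and 36.9 CPM in vehicle (9.02-fold). Psmb8 had 136 and 133 CPM with IFNγ against 16.01 and 17.6 CPM in vehicle (8.0-fold). In Cop1-guide cells the log2 changes were 5.07 ± 0.049 for Psmb9, 3.54 ± 0.032 for Psmb10 and 3.31 ± 0.044 for Psmb8. With IFNγ, Psmb8 was higher in Cop1-guide than in Rosa26 cells (0.32 ± 0.042) and so was Psmb10 (0.19 ± 0.031), whereas Psmb9 was not called (-0.03 ± 0.038). In vehicle, Psmb10 was lower in Cop1-guide cells (-0.18 ± 0.048), and Psmb8 (0.00 ± 0.071) and Psmb9 (0.12 ± 0.109) were not called. The vehicle call of Psmb10 ended without Rosa26 vehicle replicate 1 (-0.14, adjusted p = 0.107 by edgeR's test).

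Set side by side per kilobase of principal transcript, Psmb8 and Psmb10 were above their constitutive counterparts with IFNγ, and Psmb9 was below Psmb6. In vehicle each immunoproteasome transcript was below its counterpart. The ratio of Psmb8 to Psmb5 was 2.49 and 2.34 in sgRNA1 cells and 2.34 and 2.41 in sgRNA2 cells, against 2.21 and 1.81 in Rosa26 cells, all with IFNγ. It lay between 0.209 and 0.241 in the 6 vehicle libraries. The unknown counting of the bases that Psmb5 shares with Mir686 bears on this ratio. The ratio of Psmb10 to Psmb7 was 2.90 and 2.93 in sgRNA1 cells and 2.69 and 2.82 in sgRNA2 cells, against 2.73 and 2.64 in Rosa26 cells, all with IFNγ. It lay between 0.248 and 0.326 in vehicle. The ratio of Psmb9 to Psmb6 stayed below 1, with 0.599 and 0.599 in sgRNA1 cells and 0.607 and 0.605 in sgRNA2 cells, against 0.765 and 0.710 in Rosa26 cells, all with IFNγ, and was between 0.0189 and 0.0205 in vehicle. These ratios depend on the lengths used: over the union of all annotated exons, Psmb8 to Psmb5 lay between 0.871 and 1.20 with IFNγ and between 0.101 and 0.116 in vehicle. On that scale Psmb10 to Psmb7 lay between 5.98 and 6.63 with IFNγ and between 0.562 and 0.738 in vehicle, and Psmb9 to Psmb6 between 0.519 and 0.663 with IFNγ. The fold between 2 groups in such a ratio does not depend on the lengths and was not tested.

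**Figure D5:**
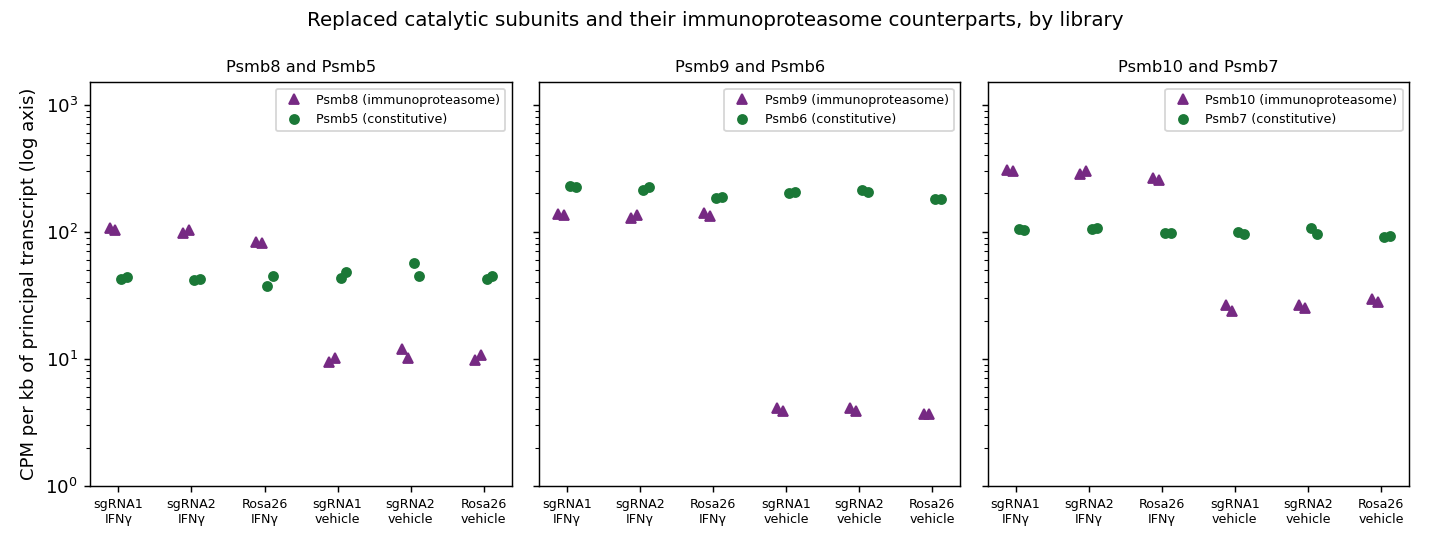
CPM per kilobase of principal transcript (vertical log axis) of Psmb8, Psmb9 and Psmb10 (triangles) and of the constitutive subunits they replace, Psmb5, Psmb6 and Psmb7 (circles), in each of the 12 libraries by guide and treatment. Triangles are far higher in IFNγ than in vehicle libraries in every panel, whereas the Psmb5 circles stay between 37.7 and 56.7 CPM per kb over all libraries.

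Other genes of the proteasome system were counted by list. Of all genes tested, 35.8% were called with loss of Cop1 in vehicle and 40.6% with IFNγ. For IFNγ against vehicle the share was 34.2% in Cop1-guide cells and 32.8% in Rosa26 cells. Several of these short lists lay near or under such shares. Of 5 tested assembly factors (of 6 listed), 3 rose and 1 fell with loss of Cop1 in vehicle and 2 rose with IFNγ. IFNγ against vehicle raised 2 in Cop1-guide cells, where 1 fell, and 2 in Rosa26 cells. In that order of the 4 comparisons, the calls were 80, 40, 60 and 40% of the tested factors. Psmg4, a chaperone of alpha ring assembly, had 42.0 and 39.8 CPM in sgRNA1 cells and 41.2 and 40.9 CPM in sgRNA2 cells, against 31.7 and 29.9 CPM in Rosa26 cells, with IFNγ. It had 23.1, 25.04, 19.8 and 19.6 CPM in Cop1-guide cells, against 16.7 and 16.1 CPM in Rosa26 cells, in vehicle. No Cop1-guide library overlapped the Rosa26 libraries of its treatment, with changes of 0.41 ± 0.065 with IFNγ (adjusted p = 1.73e-06) and 0.41 ± 0.076 in vehicle (adjusted p = 2.86e-05). IFNγ against vehicle gave 0.91 ± 0.055 in Cop1-guide cells and 0.91 ± 0.083 in Rosa26 cells. Pomp, which matures the beta ring, changed by 0.12 ± 0.031 with IFNγ and 0.20 ± 0.032 in vehicle for loss of Cop1, and by 0.25 ± 0.025 in Cop1-guide cells and 0.34 ± 0.036 in Rosa26 cells for IFNγ. With IFNγ the guides differed in Pomp: against Rosa26 it changed by 0.18 ± 0.035 in sgRNA1 cells and by 0.05 ± 0.036 in sgRNA2 cells (adjusted p = 0.26, not called), and sgRNA2 minus sgRNA1 was -0.12 ± 0.036 (adjusted p = 0.0204). The Pomp call for loss of Cop1 with IFNγ also ended with library totals (adjusted p = 0.0515) and summed populations (0.298). Psmg4 was lower in sgRNA2 than in sgRNA1 cells in vehicle (-0.28 ± 0.083, adjusted p = 0.0312), a call kept in 6 of 12 alternatives.

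Of the 5 activators and inhibitor, 1 fell with loss of Cop1 in vehicle (Psme4, -0.14 ± 0.037), and 4 rose and 1 fell with loss of Cop1 under IFNγ. That was 20 and 100% of the list, against 35.8 and 40.6% of all genes. IFNγ raised 3 in Cop1-guide cells and 3 in Rosa26 cells, where 1 fell (Psme4, -0.23). These calls were 60 and 80% of the list, against 34.2 and 32.8% of all genes. The call of Psme4 for loss of Cop1 in vehicle ended without Rosa26 vehicle replicate 2 (-0.12, adjusted p = 0.059 by edgeR's test). The IFNγ-inducible cap genes Psme1 and Psme2 changed by 2.18 ± 0.028 and 1.93 ± 0.025 with IFNγ in Cop1-guide cells and by 1.90 ± 0.040 and 1.68 ± 0.036 in Rosa26 cells. Of 6 factors bound to the 26S particle, 2 rose and 1 fell with loss of Cop1 in vehicle and 2 rose and 2 fell with IFNγ. The cytokine raised 4 in Cop1-guide cells and 2 in Rosa26 cells. Calls with loss of Cop1 were 50% of this list in vehicle and 66.7% with IFNγ. Those for the cytokine were 66.7% in Cop1-guide cells and 33.3% in Rosa26 cells. Adrm1, a ubiquitin receptor of the base, was higher with loss of Cop1 under IFNγ (0.22 ± 0.032) and in vehicle (0.20 ± 0.033). Of 6 shuttle genes, which carry ubiquitinated proteins to the proteasome, 0 were called with loss of Cop1 in vehicle (0 also at an unadjusted p under 0.05 by edgeR's test), and 2 rose and 2 fell with IFNγ. The cytokine raised 3 and lowered 1 in Cop1-guide cells and raised 2 and lowered 1 in Rosa26 cells. For the shuttles, calls with loss of Cop1 under IFNγ were 66.7% of the list. Those for the cytokine were 66.7% in Cop1-guide cells and 50% in Rosa26 cells.

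Of 7 genes of the NRF1 pathway, 1 rose and 1 fell with loss of Cop1 in vehicle, and 2 rose and 3 fell with IFNγ. That was 28.6 and 71.4% of the list, against 35.8 and 40.6% of all genes. The cytokine raised 2 and lowered 1 in Cop1-guide cells and likewise in Rosa26 cells. Each was 42.9% of the list, against 34.2 and 32.8% of all genes. Nfe2l1, which encodes NRF1, had 377, 384, 387 and 381 CPM in Cop1-guide cells, against 425 and 429 CPM in Rosa26 cells, with IFNγ. It had 323, 303, 315 and 309.7 CPM in Cop1-guide cells, against 359.6 and 354 CPM in Rosa26 cells, in vehicle. Its transcript was thus lower in Cop1-guide cells in both treatments (-0.16 ± 0.027 with IFNγ, -0.19 ± 0.027 in vehicle), while IFNγ raised it in Cop1-guide cells (0.29 ± 0.022) and in Rosa26 cells (0.26 ± 0.031). Vcp, the ATPase that extracts NRF1 from the endoplasmic reticulum membrane, rose with loss of Cop1 (0.18 ± 0.023 with IFNγ, 0.17 ± 0.023 in vehicle). Of 4 ubiquitin genes, 1 rose and 1 fell with loss of Cop1 in each treatment, Rps27a by 0.37 ± 0.027 with IFNγ and 0.30 ± 0.027 in vehicle and Ubb by -0.30 ± 0.023 and -0.16 ± 0.023. IFNγ raised Ubb in Cop1-guide cells (0.10 ± 0.019) and in Rosa26 cells (0.24 ± 0.027).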

How the data were processed

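RNA was sequenced from 12 libraries of 4T1 cells. Per the labels' protocols, a QIAGEN kit gave total RNA and an Illumina TruSeq RNA kit the libraries. STAR 2.4.0, HTSeq, DESeq2 1.10 and the build mm10 are named in the submitters' processing notes. For the strand setting, the annotation and the counting of shared reads, nothing is given in the sources used here. The authors deposited whole-number gene counts, not normalized, in 1 table. A row of totals was left out. It exceeded the gene sum by 360 counts in 1 library (sgRNA1 vehicle replicate 1) and equalled it in the others. Gene names of 4 rows were 2 date-like strings and are not named here. The result of 1 ubiquitin gene is not reported here.

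Counts were fitted with edgeR 4.0.16 (R 4.3.3), quasi-likelihood F test, TMM scaling, robust estimates and 1 mean for each of the 6 groups in 1 fit of all libraries. With filterByExpr (at least 10 counts, 15 in total), 11904 genes were kept, over which p-values were adjusted by Benjamini-Hochberg, with calls under 0.05. Loss of Cop1 is the mean of the 2 guide groups. Replicates of each group differed by more than counting noise (chi-square per degree of freedom 2.33 to 4.21), so each library counted once. The fit was also run on simulated counts with the spread fitted here, where known changes were put into some genes of the groups compared. No variation between cultures beyond that spread was added. That run cannot show how calls behave where cultures differ. Standard errors of log2 changes come from the quasi-likelihood fit and so include the spread among these libraries. The floor of 3 counts covers counting error only, and reads carry no molecular identifiers.

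The members, lists and tests were chosen with earlier results of these data known. Values in every library are given for Psmb5, Psmb6, Psmb7 and the 3 called members with the largest change in each direction of each comparison, and from other lists for at most 2 called genes of smallest p, plus Psmb8, Psmb9 and Psmb10. Other members, such as Psma2 and Psma6, were named after their values were seen. Coordinates and transcript lengths come from GENCODE vM21 (GRCm38, the assembly of mm10), and promoters from RefSeq. Alternatives were other scalings, no filter, DESeq2 1.42.0, limma 3.58.1, a replicate block, only the groups compared, either guide alone, summed populations and leaving out each library.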

Additional observations from a re-analysis of the deposited data

Results flagged for a closer look

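Among the subunit genes, the IFNγ response of 1 differed between Cop1-guide and Rosa26 cells in a test of the difference itself (edgeR's quasi-likelihood test, Benjamini-Hochberg adjusted): Psmd8, with a difference of -0.19 (adjusted p = 0.00287). For Psmd8, every IFNγ library was above every vehicle library of the same guide. It was 1 of the 34 genes tested (2.94%), where 5.74% of all genes were called.

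Around the proteasome, the same test gave calls for Psmb8 (0.31, adjusted p = 0.0151), Psmb10 (0.37, adjusted p = 2.09e-05), Psme1 (0.27, adjusted p = 0.000203), Psme2 (0.24, adjusted p = 0.000244) and Psme4 (0.27, adjusted p = 0.000609), whose responses were higher on the log2 scale in Cop1-guide cells, and the ubiquitin gene Ubb (-0.14, adjusted p = 0.00427), whose response was lower. Unlike the others with a positive value, Psme4 was lowered by IFNγ in Rosa26 cells, with means of 127 CPM against 149 CPM in vehicle. Its means with IFNγ and in vehicle were 134 and 135 CPM in sgRNA1 cells and 144 and 135 CPM in sgRNA2 cells. The value of Psmb8 ranged from 0.20 to 0.43 and was called in 16 of 22 alternatives. Its call ended with sgRNA2 alone (0.20, adjusted p = 0.264), with summed populations, and without Rosa26 vehicle replicate 2 (0.25, adjusted p = 0.225), sgRNA2 vehicle replicate 2 (adjusted p = 0.0566), Rosa26 IFNγ replicate 2 (0.0552) or sgRNA1 vehicle replicate 1 (0.0517). The call of Ubb ended without Rosa26 vehicle replicate 2 (adjusted p = 0.0686). With summed populations none of these 6 genes was called.

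The guide populations differed directly in Psmd10 in vehicle (sgRNA2 minus sgRNA1 -0.45, adjusted p = 0.00128) and in Psma2 in vehicle (-0.12, adjusted p = 0.0387) and with IFNγ (-0.15, adjusted p = 0.00532). In each, both sgRNA2 libraries were below both sgRNA1 libraries. These calls were 2 of the 34 genes tested in vehicle (5.88%, against 5.99% of all genes) and 1 of the 34 with IFNγ (against 9.41% of all genes). With 2 libraries in a group, no single library could be tested as an outlier.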

How the results depend on the processing

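Of the values of named subunit genes under the alternatives, 604 kept their side of the threshold, 40 lost the call and 10 gained one. With a call in either fit, 0 changed sign. Values without a call could change sign, as did Psmb5 for loss of Cop1 with IFNγ (-0.07 to 0.18 over the alternatives). With the libraries of each population summed, where the spread comes from the guides alone, genes called with loss of Cop1 were 5 higher and 0 lower in vehicle (902 of all genes) and 10 higher and 1 lower with IFNγ (1443 of all genes). The same fit gave 7 higher for IFNγ in Cop1-guide cells (1399 of all genes). Its interaction value for Psmd8 was -0.19, without a call. IFNγ in Rosa26 cells was not tested with this fit, which leaves 1 Rosa26 column a treatment. With sgRNA1 alone, 1 gene was lower with loss of Cop1 in vehicle, and all genes called numbered 2674 for IFNγ in Cop1-guide cells and 416 for the interaction. For IFNγ in Cop1-guide cells, 1 gene (Psmb5) was called lower with upper quartile scaling, library totals, no filter and only the groups compared. For the interaction, 2 genes (Psmd8 and Psma6) were lower with upper quartile scaling, library totals and no filter. DESeq2 called 434 of all genes for the interaction, 460 for sgRNA2 against sgRNA1 in vehicle (1 subunit gene lower) and 735 with IFNγ. For the guides in vehicle, library totals gave 1 lower, and the fit of only the groups compared gave 1 lower and 464 of all genes. The cause of these shifts was not tested.

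Leaving out each library in turn gave ranges of 1 to 3 lower genes for loss of Cop1 in vehicle, 11 to 16 higher for IFNγ in Rosa26 cells, 0 to 1 lower for IFNγ in Cop1-guide cells, and 1 to 2 lower with 348 to 733 of all genes for the interaction. For sgRNA2 against sgRNA1 the ranges were 0 to 1 higher, 1 to 2 lower and 349 to 686 of all genes in vehicle, and 0 to 1 lower and 422 to 732 of all genes with IFNγ. Under library totals the median change of all genes was -0.03 in vehicle and -0.05 with IFNγ for loss of Cop1, and that of the subunit genes 0.14 and 0.13.

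The labels repeat replicate numbers in every group. Deviations of same-numbered libraries from their group means correlated at -0.0298 to 0.0446 over 15 pairs of groups, with 0 above 0.1, so the numbers were not taken to pair the libraries. With the replicate block, 26 genes were higher and 3 lower with loss of Cop1 in vehicle, 25 and 2 with IFNγ, 19 higher for IFNγ in Rosa26 cells, 23 higher in Cop1-guide cells (Psmb7 added, adjusted p = 0.0485) and 1 lower for the interaction.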

Other observations

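Over the 6 groups, Rosa26 cells in vehicle had the lowest mean in 26 of the 34 tested subunit genes, where 16.8% of all tested genes were lowest in that group. Means were highest in sgRNA1 cells with IFNγ in 25 of the 34 (12.5% of all tested genes), in sgRNA2 cells with IFNγ in 6 and in Rosa26 cells with IFNγ in 2. These orders were not tested.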
